A study of Mus musculus with 43 samples.

Results

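The genes described here encode the proteins of the cytosolic ribosome, together with their close paralogues. They were chosen by symbol alone, as Rpl or Rps followed by a number, by a or by p0 to p2, with the Rps6k kinases left out. The rule itself uses no measured value, but it was set with earlier results of these data known. The rule found 84 genes among the 22462 in the authors' deposited table: 46 canonical genes of the large subunit, 31 of the small subunit and 7 paralogues whose symbols end in l or l1. Of these, 83 were tested by the authors, and the paralogue Rpl22l1 was not.

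RNA was sequenced from E14 cells (ES-E14TG2a), a mouse embryonic stem cell line kept in serum medium with LIF on gelatin. The Control group was compared with MTF2 KO cells of the same line, in which a Polycomb-like partner of the histone methyltransferase complex PRC2 was targeted. Each group had 3 RNA-seq libraries, which the series design calls biological replicates. No drug treatment, time course or further allele is labelled for either group, and how many clones stand behind the knockout is not stated. For each gene the authors deposited a single FPKM per group, pooled over its libraries (fragments per kilobase of transcript, scaled to sequencing depth). Values per library, their SD and the depth were therefore not analysed here. The test across replicates is the authors' own, by Cuffdiff, and a gene is called where its q, a p adjusted over 11362 tested genes, is 0.05 or less. Whether the libraries came from separate cultures is not stated further, so this q measures the spread between these libraries. Every FPKM below is the authors' pooled value. Every log2 ratio compares knockout with control after 0.5 FPKM was added to both, so that the change of a low gene is understated. The targeted gene Mtf2 stood at 74.3 and 44.7 FPKM and was called lower (Cuffdiff q = 0.0496 in the authors' deposited table). All 12 embryonic stem cell markers were present in both groups, from 20.2 to 1481 FPKM in control and with a sum of 5659 and 5456 FPKM, and 2 were called higher and 1 lower.

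A cytosolic ribosome holds a single copy of nearly every ribosomal protein. The small subunit reads the mRNA, and the large subunit joins amino acids and passes the chain through its exit tunnel. In mammals the mRNAs of these proteins usually begin with a terminal oligopyrimidine (TOP) stretch, a run of C and U bases through which mTORC1 controls their translation. Most of these genes also have many processed pseudogenes, near-identical copies without introns, so that sequencing reads can be hard to assign to the gene itself. A few have paralogues that are used in particular tissues: in the mouse Rpl10l serves male germ cells, and Rpl3l serves heart and skeletal muscle.

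Ribosomal protein genes lay mostly below their control level in the knockout, and every call among them was lower. Of 83 tested members, the authors' deposited table calls 11 lower, 0 higher and 72 neither way at that Cuffdiff threshold. Over all tested genes 6.03% were called lower and 6.9% higher, against 13.3% of members called lower. The median log2 ratio of the tested members was -0.35 (interquartile range -0.64 to 0.015), with 61 below 0 and 22 above 0. The median over all tested genes was -0.0035, with 50.2% below 0. The lowest log2 ratio, -3.82, was that of the germ-line paralogue Rpl10l, which fell from 99.2 to 6.54 FPKM.

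The background differed with expression level. Among tested genes that are no members and had a mean of 100 FPKM or more over both groups, the median log2 ratio was also below 0, at -0.22, and 15.0% of 967 were called lower and 68 were called higher. Of the 32 members at that level, 4 were called lower, which is 12.5%, and their median was -0.35, with 28 below 0. Over this whole range the share of calls was thus near that of other genes, while the median was lower. From 100 to 1000 FPKM, 4 of 21 members and 139 of 927 other genes were called lower, with medians of -0.41 and -0.21. At 1000 FPKM or more, 0 of 11 members and 6 of 40 other genes were called lower. There the members' median, -0.26, lay above the -0.39 of other genes. Between 10 and 100 FPKM, 6 of 34 members were called lower, against 383 of 5141 other genes. The medians in that range were -0.37 and -0.057. Below 10 FPKM the members' median was 0.15, equal to the 0.15 of other genes. No test of these differences was made, since genes of a single table are not replicates.

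**Figure D1:**
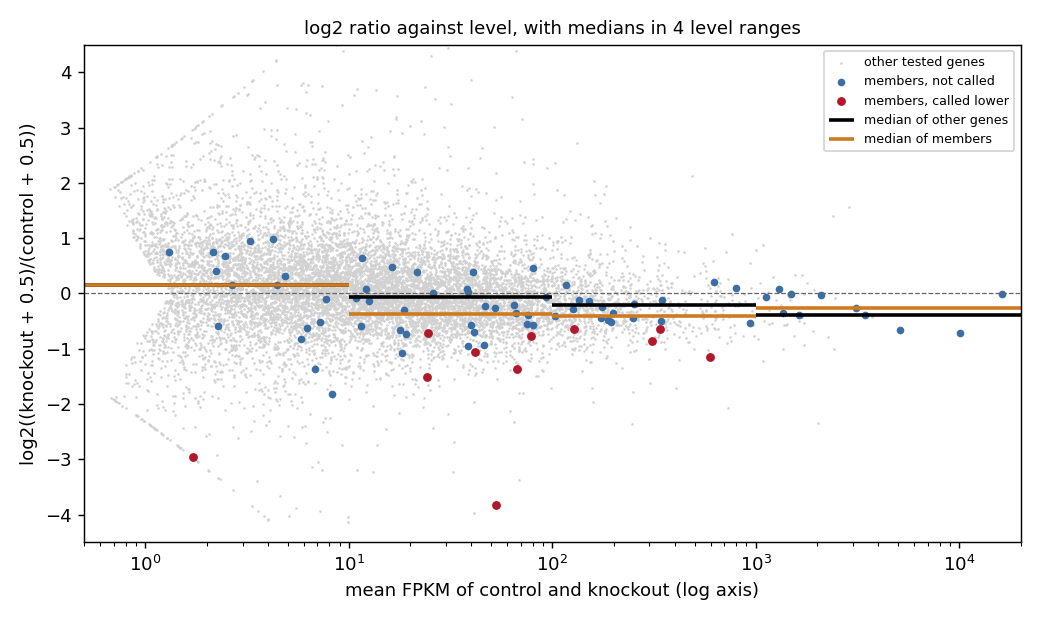
The log2 ratio of knockout over control (vertical) is plotted against the mean FPKM of both groups (horizontal, log axis) for 83 members and the other tested genes, of which 27 lie beyond the vertical axis. Bars give medians in 4 level ranges. Other genes slope from 0.15 below 10 FPKM to -0.39 at 1000 FPKM or more, and the members lie below them between 10 and 1000 FPKM and above them at 1000 FPKM or more.

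The size of these ratios depended on the scaling. Summed FPKM over all genes was 559237 in control and 504845 in knockout. Setting both sums equal moved every ratio up by 0.15, so that 51 of 83 members lay below 0 and their median was -0.20. Centring on the other genes of 100 FPKM or more moved ratios up by 0.22 and left 48 members below 0. In bulk RNA such as this, fewer cells of a type and less RNA per cell cannot be told apart.

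The count depended on the call rule. By the authors' deposited table, 5 members with a q of 0.01 or less were called lower (2.96% of all tested genes), and 6 of the 11 called were lower by at least 2-fold (2.8% of all tested genes). With a normal p computed from the deposited test statistic only Rpl10l stayed called (Benjamini-Hochberg q = 5.56e-05), against 0.258% of the 11236 genes with a finite statistic. No member was called higher under any of these rules. The stricter q and the 2-fold minimum only narrow the main calls, so they could not have added one.

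Genes of both subunits lay mostly below 0. Of the 46 canonical large-subunit genes, 4 were called lower (8.70%) and 32 lay below 0, with a median log2 ratio of -0.27 (interquartile range -0.57 to 0.079). Of the 31 canonical small-subunit genes, 5 were called lower (16.1%) and 24 lay below 0, with a median of -0.39 (interquartile range -0.68 to -0.042). The share called lower was 6.03% over all tested genes and 15.0% among the 967 other genes of 100 FPKM or more. Both sets overlapped over most of their range, and the difference between their medians was not tested.

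**Figure D2:**
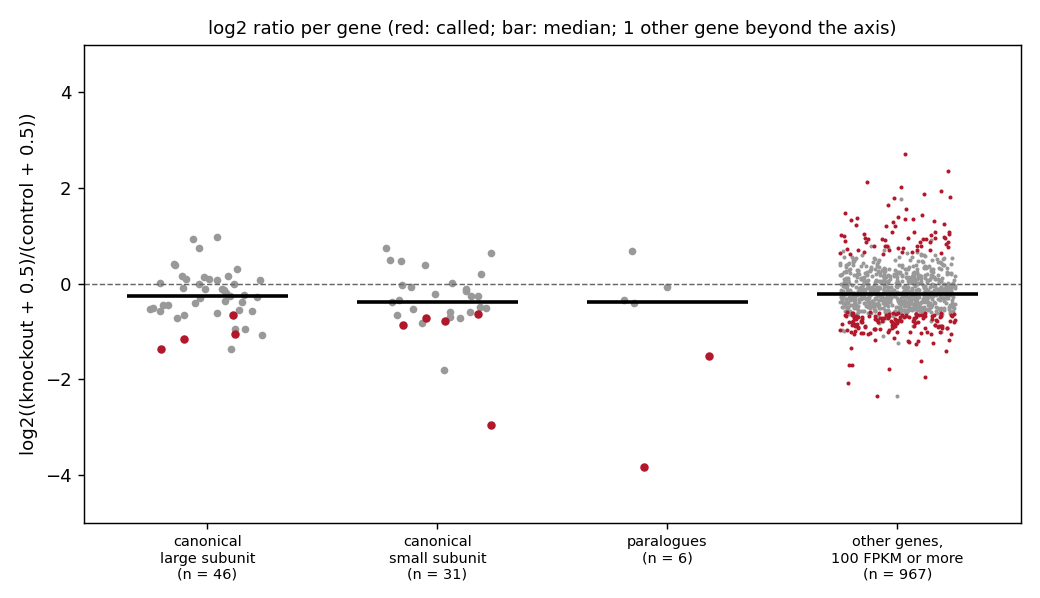
Points are log2 ratios of knockout over control for single genes in 4 sets, red where the authors' table calls the gene at a q of 0.05, with bars at the medians. All called members lie below 0, and the other genes of 100 FPKM or more hold calls on both sides, with 1 gene beyond the axis.

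Among the large-subunit genes the calls were Rpl38, Rpl15, Rpl21 and Rplp0. Rpl38, which in the mouse is needed for patterning of the axial skeleton and for translation of a set of Hox mRNAs, went from 822 to 369 FPKM (log2 ratio -1.15, Cuffdiff q = 0.0012 in the authors' deposited table). Rpl15, a core protein of the large subunit, went from 96.6 to 37.2 FPKM (log2 ratio -1.36, Cuffdiff q = 0.0012 in the authors' deposited table). Rpl21 went from 56.4 to 26.9 FPKM (log2 ratio -1.05, Cuffdiff q = 0.0154 in the authors' deposited table). All 3 were thus at 38.5% to 47.8% of their control level. Rplp0, the base of the P stalk that recruits the translation factors, fell less, from 414 to 264 FPKM (log2 ratio -0.65, Cuffdiff q = 0.0214 in the authors' deposited table).

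The other stalk proteins were not called: Rplp1 stood at 3886 and 2979 FPKM, Rplp2 at 359 and 331 FPKM, and Rpl12, which binds at the stalk base, at 11.7 and 12.4 FPKM in control and knockout. Only Rplp0 of the 4 stalk genes therefore passed the threshold, and the difference between it and the others was not tested. Rpl5 and Rpl11, which form a particle with the smallest ribosomal RNA and bind MDM2 when free, stood at 4.18 and 4.68 FPKM for Rpl5 and at 10.1 and 3.60 FPKM for Rpl11. Neither was called, although the log2 ratio of Rpl11, -1.37, was the lowest among the large-subunit genes.

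Genes near the peptidyl transferase centre, where peptide bonds form, ran in both directions. Rpl8 stood at 12480 and 7635 FPKM, a log2 ratio of -0.71 that was not called (Cuffdiff q = 0.418 in the authors' deposited table). Rpl4 stood at 1265 and 1346 FPKM, Rpl3 at 2.07 and 4.43 FPKM, and Rpl10, which matures late and is needed for subunit joining, at 2.68 and 5.80 FPKM. Rpl10 and Rpl3 had the largest positive ratios of the large subunit, 0.98 and 0.94, but at low levels and without a call. The next were Rpl10a (1.48 and 2.82 FPKM), Rpl17 (1.85 and 2.62 FPKM) and Rpl23 (35.3 and 46.3 FPKM).

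Of the 7 exit tunnel genes, Rpl17, Rpl19, Rpl23a, Rpl26, Rpl31, Rpl35 and Rpl39, none was called, 6 lay below 0, and the median log2 ratio was -0.29. Over all tested genes 6.03% were called lower, so 7 genes are too few to show a lack of calls. The exit tunnel gene of lowest ratio was Rpl31, at 60.7 and 31.4 FPKM. Among the uncalled genes of the large subunit, Rpl29 stood at 24.9 and 11.6 FPKM and Rpl27 at 51.1 and 26.1 FPKM. Rpl27 was the member just outside the threshold (Cuffdiff q = 0.0562), and Rps2 the one just inside it (q = 0.0436), both in the authors' deposited table.

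Among the small-subunit genes the calls included Rps19, Rps16, Rps20 and Rps2, and 3 of them belong to the head of the subunit, where the mRNA and the transfer RNAs move through. Rps19, the gene most often mutated in human Diamond-Blackfan anaemia, went from 399 to 219 FPKM (log2 ratio -0.87, Cuffdiff q = 0.0052 in the authors' deposited table). Rps16, whose tail reaches toward the decoding site, went from 99.5 to 57.9 FPKM (log2 ratio -0.78, Cuffdiff q = 0.0198 in the authors' deposited table). Rps20 went from 30.7 to 18.4 FPKM (log2 ratio -0.72, Cuffdiff q = 0.0176 in the authors' deposited table). The other head genes listed, Rps29 (13.2 and 11.9 FPKM) and Rps10 (38.1 and 38.6 FPKM), were not called. This list of 5 head genes is not a full one, since each gene was given a single role group at most and many members were given none. Uncalled small-subunit genes are among those without a group. The 3 calls are therefore no share of the head as a whole. Over all tested genes 6.03% were called lower, and whether calls gather in the head was not tested.

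At the mRNA entry channel, Rps2 fell from 156 to 100.008 FPKM (log2 ratio -0.64, Cuffdiff q = 0.0436 in the authors' deposited table), while Rps3 stood at 2119 and 2087 FPKM.

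The few genes listed for the mRNA exit side held no calls, where 6.03% of all tested genes were called lower. So short a list cannot show a lack of calls. Rps14 stood at 1105 and 760 FPKM, Rps26 at 1142 and 1093 FPKM, and Rps28 at 0.839 and 1.76 FPKM. Rps28 had the lowest control level of all canonical members and the highest log2 ratio of the small subunit, 0.75. It was followed by Rps23, a decoding site protein, at 9.01 and 14.2 FPKM, Rps13 at 13.5 and 19.2 FPKM, the X-linked Rps4x at 67.1 and 93.0 FPKM and Rps15a at 18.6 and 24.6 FPKM. None of these was called. At the low end, Rps3a1 (13.2 and 3.40 FPKM, Cuffdiff q = 0.0987 in the authors' deposited table) and Rps27 (7.60 and 4.05 FPKM) also missed the threshold. Rps6, the protein that S6 kinases phosphorylate, stood at 2.85 and 1.72 FPKM and was not called.

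**Figure D3:**
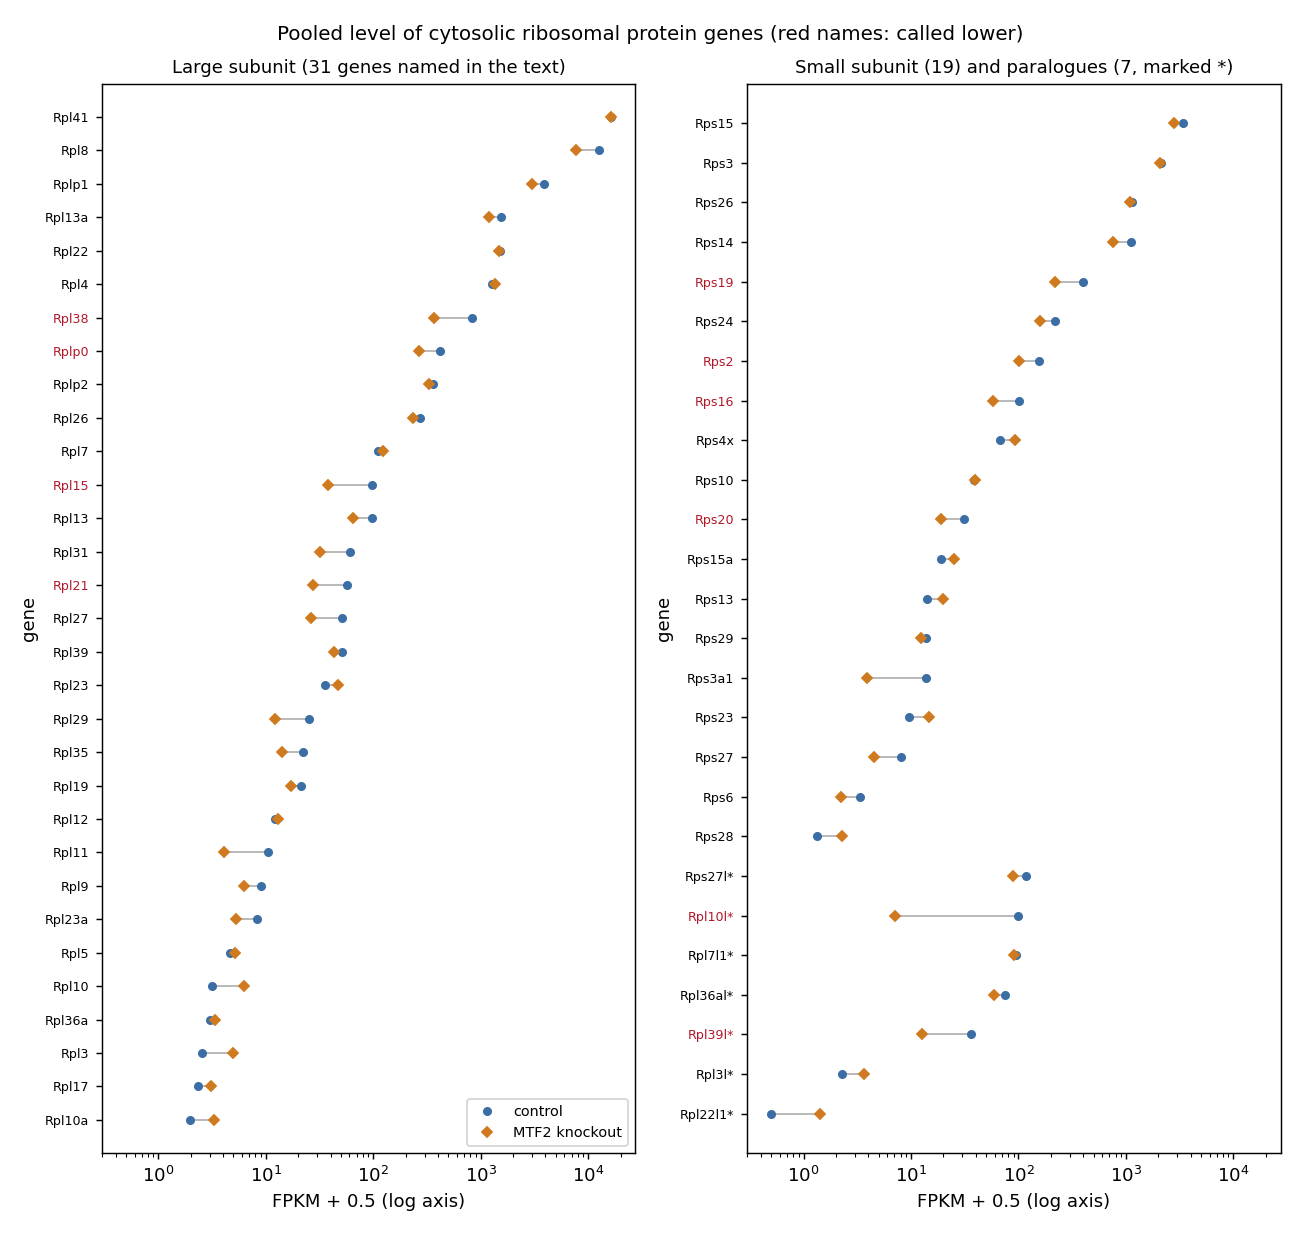
Each row is a member named in the text, with its pooled control and knockout level as FPKM + 0.5 on a log axis, and 1 pooled value per group without error bars. Red names were called lower, Rpl10l has the longest line, and Rpl22l1 is listed at 0 in control.

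The paralogues differed among themselves. Of the 6 tested, 2 were called lower, Rpl10l and Rpl39l, against 6.03% of all tested genes. Whether calls gather among the paralogues was not tested. Both called genes are known in the mouse as testis paralogues of X-linked genes. Both met the 2-fold minimum, but only Rpl10l stayed called at the stricter q and with the normal p. Rpl10l (chromosome 12, 66283379 to 66284401, mm10), an intronless autosomal copy that stands in for Rpl10 during male meiosis, went from 99.2 to 6.54 FPKM (log2 ratio -3.82, Cuffdiff q = 0.0012 in the authors' deposited table). Its X-linked partner Rpl10 stood at 2.68 and 5.80 FPKM and was not called. In control cells Rpl10l was therefore listed 37.0-fold above Rpl10, and in knockout 1.13-fold. It made up 97.4% of the pair's FPKM in control and 53.0% in knockout, and the summed FPKM of the pair went from 102 to 12.3. RefSeq names 6 pseudogenes after Rpl10 and 0 after Rpl10l, so the low level of Rpl10, and with it the fold and the shares, is uncertain. Rpl10l is itself an intronless copy, and the part of reads that also match Rpl10 or its other copies in the level of Rpl10l was not tested.

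Rpl39l (chromosome 16, 10170226 to 10174911, mm10), the paralogue of the exit tunnel protein Rpl39, went from 36.0 to 12.2 FPKM (log2 ratio -1.52, Cuffdiff q = 0.0435 in the authors' deposited table). Its X-linked partner Rpl39 stood at 50.5 and 43.0 FPKM and was not called. The paralogue's share of the pair went from 41.6% to 22.1%. In both pairs it was the paralogue that was called and not the partner, and the difference within a pair was not tested.

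The remaining paralogues were not called. Rps27l, a p53 target gene, stood at 117 and 88.0 FPKM, above its partner Rps27. Rpl36al, an autosomal copy of the X-linked Rpl36a, stood at 73.9 and 58.1 FPKM, against 2.50 and 2.85 FPKM for Rpl36a. Both held over 93% of their pair in control and in knockout, shares that rest on low levels of Rps27 and Rpl36a, after which 2 and 3 pseudogenes are named. Rpl7l1 stood at 95.2 and 90.8 FPKM beside Rpl7 at 110 and 123 FPKM, and the muscle paralogue Rpl3l at 1.78 and 3.16 FPKM beside Rpl3. Rpl22l1, untested, was listed at 0 in control cells and had 0.929 FPKM in the knockout, beside Rpl22 at 1498 and 1493 FPKM.

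**Figure D4:**
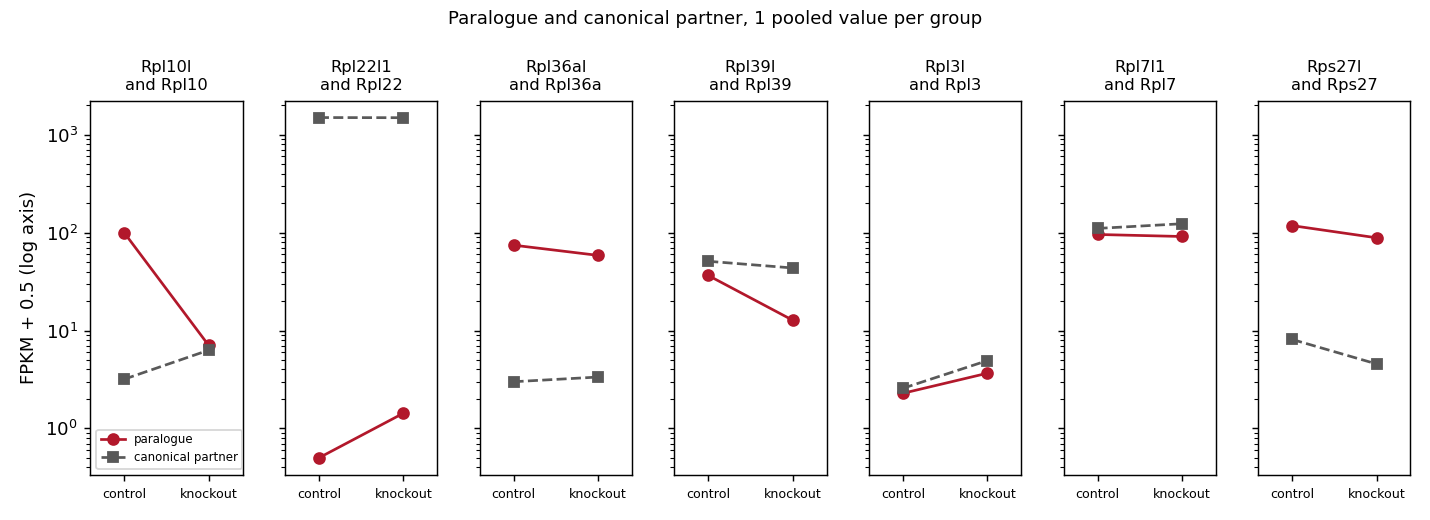
Each panel shows a paralogue (circles) and its canonical partner (squares) in control and knockout, as FPKM + 0.5 on a log axis with 1 pooled value per group. Rpl10l drops from 99.2 to 6.54 FPKM to meet Rpl10, Rpl39l, already below Rpl39 in control, drops further, and the other pairs keep their order.

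Some markers of other cell types were also called between the groups, most of them markers of primitive endoderm. Of 15 primitive endoderm markers, 12 were called higher, and their summed level was 351 FPKM in control and 1787 FPKM in knockout. Of 12 germ cell markers, 6 were tested and 2 called lower: Syce1 at 7.57 and 1.49 FPKM, and Stra8 at 12.1 FPKM in control and listed at 0 in knockout. The summed level of all 12 was 37.8 and 14.1 FPKM. Of the 6 tested, 5 lay below 0 and 1 above. Over all tested genes 6.03% were called lower and 6.9% higher. The uncalled ones were Mael (6.43 and 1.57 FPKM), Piwil2 (6.45 and 4.33 FPKM), Ddx4 (2.08 and 2.03 FPKM) and the meiotic chromosome axis gene Sycp3 (1.68 and 3.43 FPKM). Among those not tested, the meiotic gene Sycp1 stood at 0.354 and 0.773 FPKM, Dazl at 1.01 and 0.0871 FPKM, and the spermatid gene Tnp1 at 0 in both groups. The part of these markers in the values of Rpl10l, Rpl39l and the other members was not tested. Of 10 fibroblast markers, Col3a1, Twist2, Dcn and Postn were at 0 in both groups, and Fbln1 was called lower and Thbs1 higher. Of 10 striated muscle markers 2 were tested and none was called, and their summed level was 5.80 and 6.88 FPKM.

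Levels of the canonical genes spanned a wide range although a ribosome holds about equal numbers of its proteins. In control cells the 77 canonical genes ran from 0.839 FPKM for Rps28 to 16313 FPKM for Rpl41, which encodes the smallest ribosomal protein and stood at 16268 FPKM in knockout, uncalled. Among the 5 highest were also Rpl8, Rplp1 (3886 FPKM) and Rps15 (3373 FPKM). The order was nearly the same in both groups, with a Pearson correlation of log2(FPKM + 0.5) of 0.98 across the 77 genes, given as a description of genes that share libraries.

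All 84 members together made up 10.9% of summed FPKM in control (60695 of 559237) and 9.74% in knockout (49150.2 of 504845). Rpl41 alone made up 26.9% of the members' sum in control and 33.1% in knockout. Rpl8 made up 20.6% and 15.5%. Without Rpl41 and Rpl8, the other 82 members summed to 31902 FPKM in control and 25247 FPKM in knockout. Nearly equal parts of the members' sum thus lie in these 2 genes, neither of them called, and in all others.

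Low levels went with named pseudogenes. RefSeq (GRCm38.p6) holds 316 pseudogene entries named after 63 of the members with the ending -ps, and further copies under other names were not counted. The 15 canonical genes with none had a median control level of 400.2 FPKM, the 32 with 1 to 3 had 68.2 FPKM, and the 30 with 4 or more had 42.9 FPKM. Spearman's rho between control FPKM and the number of named pseudogenes was -0.30 across the 77 genes, which share libraries and are given as a description. The log2 ratio did not follow the number in the same way (rho = -0.057), with medians of -0.44, -0.26 and -0.32 in the 3 sets. In these sets 1 of 15, 4 of 32 and 4 of 30 genes were called lower, against 6.03% of all tested genes. Of the called genes, Rpl21 has 15 named pseudogenes, Rps19 13, Rps2 12 and Rpl15 5. The counting of reads that match several copies is not described in the labels, so the levels of these genes are uncertain, and the part of such reads in the calls was not tested.

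**Figure D5:**
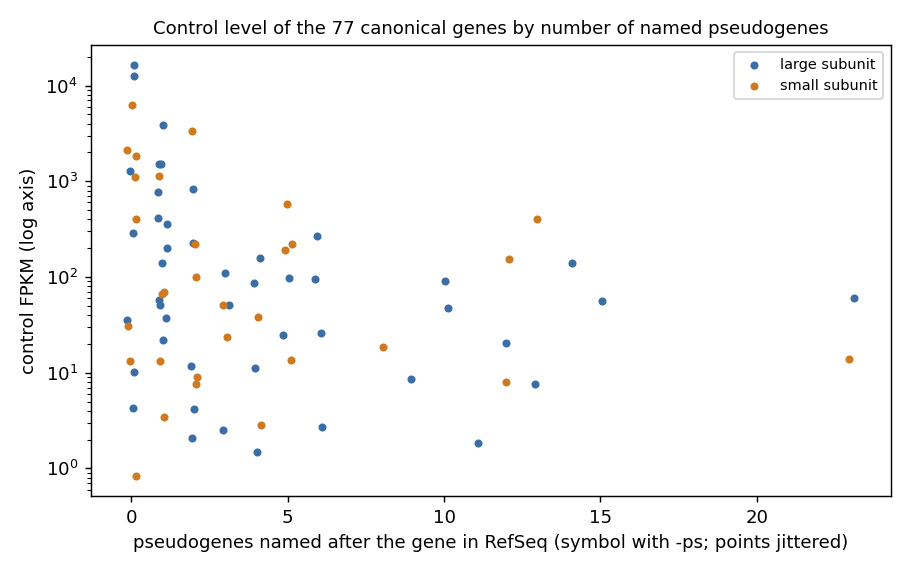
Each point is a canonical ribosomal protein gene, with the number of RefSeq pseudogenes named after it (horizontal, jittered) and its control FPKM (vertical, log axis). No gene with 4 or more named pseudogenes exceeds 578 FPKM, and genes with none run from 0.839 to 16313 FPKM.

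The table itself lists 14 of these pseudogenes. Of them, 4 were tested and none was called. Rpl9-ps6 stood at 87.1 and 64.3 FPKM, above Rpl9 itself at 8.58 and 5.81 FPKM, and Rpl13a-ps1 at 56.9 and 29.0 FPKM, below Rpl13a at 1527 and 1196 FPKM. 5 of the 14 were listed at 0 in both groups.

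By position, the members lay on 19 chromosomes. On chromosome 14, where 306 of 382 other tested genes had a ratio above 0 and 116 were called higher, both members lay below 0. Rpl15 (18267823 to 18271067, mm10) was called lower, and Rps24 (24490681 to 24496146) stood at 220 and 157 FPKM without a call. The median log2 ratio of the other genes there was 0.71. On chromosome 8, Rpl13 stood at 95.9 and 64.5 FPKM and was not called. Rpl13 shares a locus entry with 73 other genes in the table, the largest such entry among the members, and 12 members share an entry with some other gene. Without the members on chromosomes 8 and 14, 10 of 79 were called lower, against 6.03% of tested genes on all chromosomes. The 4 X-linked members, Rpl10, Rpl36a, Rpl39 and Rps4x, were not called, and 3 of them lay above 0.

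Promoters of the called genes are shown because many members lay below 0 together, from RefSeq on GRCm38.p6, with those of Rpl10 and Rpl39 beside their paralogues. Promoters were matched by symbol for 64 of the 84 members and for 8 of the 11 called lower. Each stretch runs 5′ to 3′ on the gene's own strand over 60 bases before and 20 from the most upstream annotated start on. Capitals mark runs of 7 or more pyrimidines, the kind of stretch from which a TOP mRNA begins. Without a matched promoter were Rpl21 (chromosome 5, 146832890 to 146837032, mm10) and Rps20 (chromosome 4, 3831334 to 3835665). On the plus strand lie Rpl10 (chrX:74270756-74270835), Rpl38 (chr11:114668520-114668599), Rpl39l (chr16:10170168-10170247), Rplp0 (chr5:115559407-115559486), Rps16 (chr7:28350629-28350708), Rps19 (chr7:24884532-24884611) and Rps2 (chr17:24720003-24720082). On the minus strand lie Rpl10l (chr12:66284382-66284461), Rpl15 (chr14:18270967-18271046) and Rpl39 (chrX:37085203-37085282).
Rpl10l: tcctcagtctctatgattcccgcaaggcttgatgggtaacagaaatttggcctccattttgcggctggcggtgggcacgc
Rpl10: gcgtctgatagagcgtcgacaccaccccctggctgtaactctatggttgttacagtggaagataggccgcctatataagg
Rpl39l: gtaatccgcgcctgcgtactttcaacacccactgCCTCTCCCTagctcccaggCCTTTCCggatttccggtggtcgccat
Rpl39: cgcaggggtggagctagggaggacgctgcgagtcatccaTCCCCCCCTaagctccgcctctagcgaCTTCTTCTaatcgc
Rpl15: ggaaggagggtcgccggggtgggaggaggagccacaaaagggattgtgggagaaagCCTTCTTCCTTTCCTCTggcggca
Rpl38: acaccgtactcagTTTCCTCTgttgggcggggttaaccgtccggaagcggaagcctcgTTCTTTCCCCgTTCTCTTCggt
Rplp0: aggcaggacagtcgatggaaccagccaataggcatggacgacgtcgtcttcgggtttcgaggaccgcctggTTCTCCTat
Rps16: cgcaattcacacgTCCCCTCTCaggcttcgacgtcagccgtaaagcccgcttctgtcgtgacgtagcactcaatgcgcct
Rps19: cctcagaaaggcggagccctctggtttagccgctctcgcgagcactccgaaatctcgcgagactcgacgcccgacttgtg
Rps2: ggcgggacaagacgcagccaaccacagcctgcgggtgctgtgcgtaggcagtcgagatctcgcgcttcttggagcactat

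Rps19 has 3 annotated starts and the others 1. Rpl15 and Rpl38 have a pyrimidine run across their annotated start, and Rpl39l has a run just before it. Rpl10l, Rpl10, Rps19 and Rps2 show no run of that length in this stretch, which says only that these letters are not in this window. Within 25 bases on either side of the start, a run of 7 or more pyrimidines was found in 35 of 64 member promoters (54.7%), against 29.2% of 27025 promoters and 26.1% of 8737 promoters of tested genes. It was found in 4 of the 8 called genes and in 31 of the 56 others, a similar share. A start with C followed by 4 pyrimidines was annotated in 12 members (18.8%), against 2.48% of all promoters. None of these 12 was a paralogue.

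Short motifs were searched on both strands of the 300-base promoters. CCGGAAG, a core letter string bound by ETS factors, was in 25 of 64 members (39.1%) and in 9.14% of all promoters, or 19.4% of those of tested genes. AAGATGG, a string bound by YY1, was in 15.6% of members, 6.46% of all promoters and 7.68% of those of tested genes. The E-box CACGTG, bound by MYC, was in 7.81% of members, 7.24% of all promoters and 10.7% of those of tested genes. TATAAA was in 10.9% of members, 14.2% of all promoters and 6.30% of those of tested genes. CTTTCC, which can overlap a pyrimidine run, was in 46.9% of members, 26.4% of all promoters and 26.0% of those of tested genes. Of the 8 called genes, 7 held CTTTCC, 4 CCGGAAG, 2 TATAAA, 1 AAGATGG and 0 CACGTG. Of the 56 members not called, 23 held CTTTCC, 21 CCGGAAG, 5 TATAAA, 9 AAGATGG and 5 CACGTG. These counts were not tested. A match is a description of letters and not a binding site.

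Proteins of the ribosome made as fusions or bound to it lie outside the symbol rule. Fau, a ubiquitin-like protein fused to a small-subunit protein, stood at 59.0 and 34.1 FPKM, and the scaffold Rack1 at 1486 and 1418 FPKM. Neither was called.

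Other genes with TOP mRNAs lay about evenly on both sides of 0. Of 23 translation factors and related TOP genes, 1 was called lower (4.35%) and 0 higher, against 6.03% and 6.9% over all tested genes. Their median log2 ratio was 0.041, with 13 above 0. The call was Btf3, a subunit of the nascent chain complex, which fell from 99.6 to 54.2 FPKM. Eef1a1, which carries transfer RNAs to the ribosome, stood at 1662 and 1891 FPKM and Eef2, which moves the ribosome along, at 2931 and 2247 FPKM, both uncalled. The difference between this list and the ribosomal protein genes was not tested.

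Ribosome assembly factors lay mostly below 0, with calls on both sides. Among 57 tested, calls numbered 9 lower (15.8%) and 4 higher, against 6.03% lower and 6.9% higher over all tested genes. Below 0 lay 43 of them (median log2 ratio -0.22). Of tested genes that are no members, 7.45% were called lower between 10 and 100 FPKM, with a median of -0.057. At 100 FPKM or more it was 15.0%, with a median of -0.22. The difference from these was not tested. The largest falls were those of Pno1, a factor of small-subunit maturation (125 to 44.3 FPKM), Bop1, a factor of large-subunit maturation (93.8 to 39.4 FPKM), Rrp12 (57.7 to 27.1 FPKM) and Nle1 (99.6 to 48.4 FPKM). The nucleolar methyltransferase Fbl and the pseudouridylation proteins Nhp2 and Gar1 were also called lower. The calls above 0 were Riok1, a kinase of small-subunit maturation (9.62 to 21.2 FPKM), Nop58 (20.5 to 43.0 FPKM), Mphosph10 (20.9 to 36.4 FPKM) and the pseudouridine synthase Dkc1 (36.1 to 57.8 FPKM).

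Over all tested genes 6.03% were called lower and 6.9% higher, which is the background for the following short lists. Of 15 RNA polymerase I genes, whose products transcribe ribosomal RNA, 2 were called lower (13.3%) and 0 higher: Taf1c (20.5 to 8.46 FPKM) and Polr1b (23.6 to 14.1 FPKM). Of 10 chaperones and importers of ribosomal proteins none was called, with a median log2 ratio of -0.26. Among 21 MYC and mTORC1 regulators, the translation inhibitor Eif4ebp1 rose from 202 to 403 FPKM, its relative Eif4ebp2 fell from 337 to 186 FPKM, and the MYC antagonist Mxi1 fell from 13.0 to 7.10 FPKM. Myc stood at 39.0 and 35.3 FPKM, Mycn at 42.2 and 28.0 FPKM, and Larp1, which binds TOP mRNAs, at 143 and 164 FPKM, all uncalled. Of 11 genes of the p53 response that free ribosomal proteins can start, 1 was called higher, Sesn2 (58.6 to 92.6 FPKM), and 0 lower. Of the 11, 7 lay below 0 and 4 above, with a median log2 ratio of -0.087. Mdm2 (29.0 and 34.0 FPKM), Cdkn1a (46.4 and 46.3 FPKM) and Bbc3 (88.8 and 57.9 FPKM, Cuffdiff q = 0.0531 in the authors' deposited table) were not called.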

How the data were processed

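The analysis started from 1 gene table of 6 RNA-seq libraries, 3 per group. The other 37 of the 43 samples, ChIP-seq and input, were not analysed here. Libraries were made from polyadenylated RNA, per the labels' protocols. TopHat2 2.1.0, Cuffdiff 2.2.1.3, mm9 and mm10 are named in the submitters' processing notes, which do not tie a build to a file. The authors made the FPKM values, with the libraries of a group pooled, per the file headers. Their deposited log2 change has no pseudocount and was replaced by the ratio below. The test statistic deposited by the authors is a score of the ratio over its error, and the p-value and q-value are the authors', with q equal to a Benjamini-Hochberg adjustment over 11362 genes with status OK to within 5.2e-07. The 11098 NOTEST and 2 FAIL genes stayed out of tests. Some genes that the rule below would name are not reported here. Depth is unknown.

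From these values log2 ratios (pseudocount 0.5 FPKM), medians, shares and counts of the authors' calls were computed in Python 3.11.15 with pandas 2.3.3, and no test across libraries could be added. The ratio and the adjustment were tested on simulated data. Starts were moved from 0-based to 1-based. All 84 members matched RefSeq symbols on GRCm38.p6, with the same chromosome for each and positions less than 2 kb apart for 82, and coordinates are therefore called mm10. The members, lists and role groups were chosen with earlier results of these data known. The text names members called by the authors, all paralogues with partners, the 5 highest and 5 lowest ratios of each subunit, the 5 highest and 5 lowest control levels, members on chromosomes 8 and 14, members at 0, Mtf2 and up to 4 called genes per list and direction, and others to fill the role groups, named after their values were seen. Alternatives tried were a stricter q (0.01), a change of at least 2-fold, an FPKM of 1 or more, a normal p from the test statistic, pseudocounts of 0.1 and 1, 3 other scalings, and sets without shared locus entries, without chromosomes 8 and 14 and without the 10 highest genes.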

Additional observations from a re-analysis of the deposited data

How the results depend on the processing

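No member was called higher under any alternative tried. Except for the normal p, those that bear on the calls only keep a part of the main calls and could not add one. The count called lower was 10 or 11 with an FPKM of 1 or more, without chromosomes 8 and 14 and without shared locus entries. It was 5 at a q of 0.01, 6 with a 2-fold minimum and 1 with a normal p from the test statistic. Among members of 50 FPKM or more, chosen after seeing the data, 7 of 43 were called lower. The share of other genes above that level was not computed. It was 7.45% between 10 and 100 FPKM and 15.0% at 100 FPKM or more. The median log2 ratio of members stayed below 0 under each alternative. Scaling to the same summed FPKM moved it to -0.20 for all members, -0.12 for the large and -0.24 for the small subunit. Centring on other genes of 100 FPKM or more moved these to -0.13, -0.053 and -0.17. Without the 10 genes of highest FPKM, 5 of them members, members held 3.66% of the control sum and 3.39% of the knockout sum. With 0.5 FPKM added, the share of Rpl22l1 in its pair went from 0% to 0.0334% in control and from 0.0622% to 0.0956% in knockout. A median counted as moved beyond 0.1 and a share or count beyond 1.5-fold, since no spread between libraries was at hand. No paired analysis was possible because the columns are pooled and carry no replicate numbers, and for the same reason no library could be left out.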
